A study of Mus musculus with 9 samples.

Results

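Sox7, Sox17 and Sox18 form the SoxF group of transcription factors. They were taken by gene symbol as 3 of the 24421 genes counted in bEnd.3 tumors of mice given R-propranolol or vehicle. bEnd.3 is a mouse endothelial line that carries the polyoma middle T antigen and grows as a vascular tumor when injected into mice. The cells were placed in the right flank of male athymic Nu/Nu nude mice. These hosts lack T cells but keep macrophages, B cells and NK cells, and supply the vessels and stroma of the tumor. The 5 R-propranolol tumors came from animals given that enantiomer of the beta blocker propranolol into the peritoneum at 6 mg/kg/day, 5 times a week, from the second day after injection. The 4 vehicle tumors came from animals given ethanol diluted in DPBS. RNA of frozen tumor tissue was sequenced, with 1 library per sample. Each library is called a tumor here, although the titles of vehicle replicates 1 and 2 share a mouse number. Whether those libraries came from separate animals or tumors is not known.

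SoxF proteins carry a high mobility group domain that bends DNA at short motifs close to ACAAT, and they act in endothelial cells during the formation of arteries, veins and lymphatic vessels. Sox17 is known for its part in arterial identity, Sox18 for the onset of lymphatic fate through Prox1, and Sox7 for vascular development, with partly shared duties among the group. SOX18 protein is a reported target of R-propranolol, which in human cells has been described as interfering with its dimerization and binding to DNA. The counts described here measure RNA, not protein or its activity.

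Libraries held 21084749 to 27852630 counts over genes in R-propranolol tumors and 20599904 to 24949010 in vehicle tumors. R-propranolol replicate 5 stood apart from the rest. Across genes, r of log2 CPM (gene counts scaled to a common library total) was 0.678 to 0.790 between this library and each other one, against 0.897 to 0.988 among the other 8. Skeletal muscle markers took 16.5% of its counts and summed to 231013 CPM, against 42.1 to 578 CPM in the other 8 tumors. The summed CPM of 15 endothelial markers was 805 to 1183 in R-propranolol tumors and 936 to 1149 in vehicle tumors, with none of the markers at 0 in any tumor. The main comparisons below are therefore also given without that library. CPM were scaled by the trimmed mean of M values (TMM).

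Sox7 lies on chromosome 14 at 63943673 to 63950732 of GRCm38 (ENSMUSG00000063060.6, plus strand), with 1 annotated transcript of 3299 exon bases. Sox18 lies on chromosome 2 at 181669836 to 181671640 (ENSMUSG00000046470.5, minus strand) and has 1620 exon bases. Sox17 lies on chromosome 1 at 4490931 to 4497354 (ENSMUSG00000025902.13, minus strand), with 8 transcripts that merge to 4772 exon bases. Of these, 804 also belong to Gm37587 on the other strand, so Sox17 counts are less certain if reads were counted without strand. The exons of Sox7 and Sox18 overlap no other annotated gene.

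None of the SoxF genes differed between R-propranolol and vehicle tumors beyond the spread between tumors. Sox17 and Sox18 were several times higher in R-propranolol replicates 2 and 5 than in any vehicle tumor, and near the vehicle level in the other 3 R-propranolol tumors. Sox7 was near one level in 8 tumors and low in R-propranolol replicate 5 alone.

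Sox18 had 8.08, 42.1, 9.92, 5.29 and 27.5 CPM in R-propranolol replicates 1 to 5, against 8.91, 6.78, 9.17 and 8.35 CPM in vehicle replicates 1 to 4. The counts behind these values were 229, 1053, 276, 129 and 413 in R-propranolol tumors and 207, 176, 231 and 176 in vehicle tumors. Replicates 2, 3 and 5 of R-propranolol lay above the highest vehicle tumor and replicate 4 below the lowest, so the groups overlapped. Against the vehicle mean, Sox18 was 5.08 times as high in R-propranolol replicate 2 and 3.31 times as high in replicate 5. The means were 18.6 ± 15.8 CPM in R-propranolol tumors (SD, n = 5) and 8.30 ± 1.07 CPM in vehicle tumors (SD, n = 4). By edgeR's quasi-likelihood test the log2 fold change of R-propranolol over vehicle was 1.16 (SE 0.60, 95% interval -0.19 to 2.51) and the Benjamini-Hochberg adjusted p = 0.876 over 13901 genes.

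Sox17 was the least abundant of the group per kilobase of exon in all 9 tumors. It had 2.01, 8.85, 2.26, 1.31 and 10.6 CPM in R-propranolol replicates 1 to 5, against 2.11, 2.12, 2.78 and 1.47 CPM in vehicle replicates 1 to 4. The same R-propranolol tumors, replicates 2 and 5, were the high ones, at 4.17 and 4.99 times the vehicle mean, and the other 3 were below the highest vehicle tumor. Its counts were 57, 221, 63, 32 and 159 in R-propranolol tumors and 49, 55, 70 and 31 in vehicle tumors. The 221 counts of R-propranolol replicate 2 had a 95% Poisson interval of 193 to 252, which covers counting error only and lies above every vehicle count. The log2 fold change was 1.23 (SE 0.66, 95% interval -0.26 to 2.73, edgeR adjusted p = 0.876).

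Sox7 was the most abundant of the group per kilobase of exon in 7 of 9 tumors. It had 58.4, 52.7, 55.4, 64.0 and 12.4 CPM in R-propranolol replicates 1 to 5, against 70.6, 55.2, 61.8 and 57.7 CPM in vehicle replicates 1 to 4. Only the muscle-rich R-propranolol replicate 5 was low, at 0.203 times the vehicle mean, and no R-propranolol tumor exceeded the highest vehicle tumor. The means were 48.6 ± 20.6 CPM in R-propranolol tumors (SD, n = 5) and 61.3 ± 6.73 CPM in vehicle tumors (SD, n = 4). The log2 fold change was -0.33 (SE 0.39, 95% interval -1.22 to 0.55, edgeR adjusted p = 0.878).

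**Figure D1:**
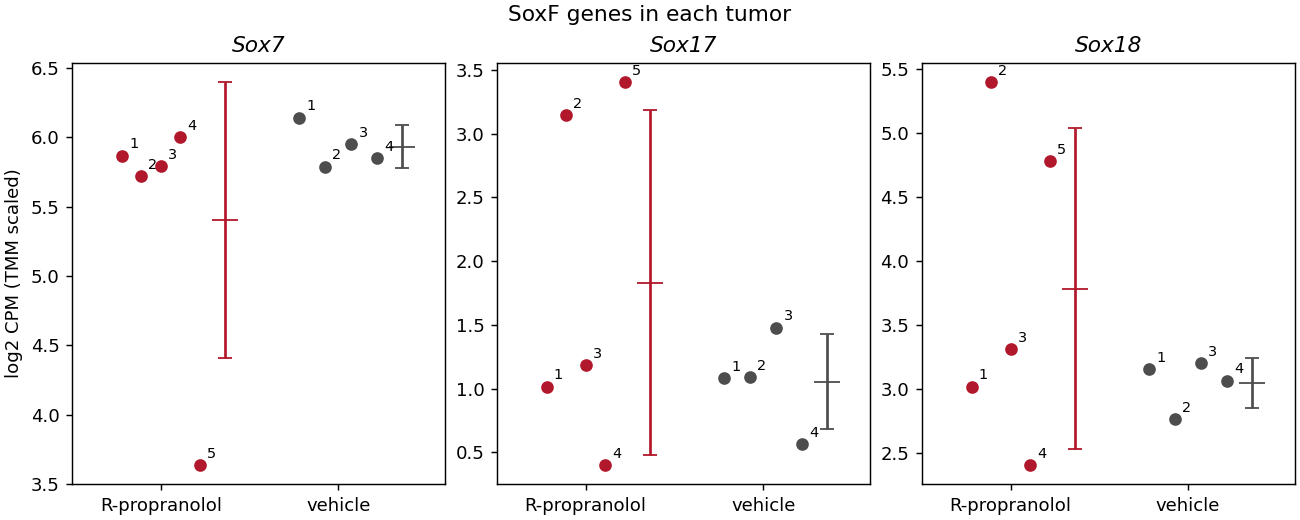
Log2 CPM of Sox7, Sox17 and Sox18 in each tumor, R-propranolol left of vehicle, with points numbered by replicate and bars for the mean ± SD. R-propranolol replicates 2 and 5 stand above the vehicle tumors for Sox17 and Sox18, and replicate 5 stands below them for Sox7 (12.4 CPM).

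None of the 3 SoxF genes passed an adjusted p of 0.05 in edgeR, where 0% of the 13901 tested genes did. None passed an unadjusted p of 0.05 either, where 2.3% of the tested genes did (320 genes). DESeq2 called 2 genes at an adjusted p of 0.05, Dusp1 and Egr1 (named after their values were seen). In DESeq2, Sox18 passed an unadjusted p of 0.05, 1 of the 3 SoxF genes, as did 656 of the 13901 genes in that fit. DESeq2 gave some of the 13901 no p-value, among them 14 skeletal muscle markers, so the share among genes with a p-value is larger. The adjusted p of Sox18 in DESeq2 was 0.909. An exact two-sided permutation test on mean log2 CPM, whose smallest possible p is 0.00794 over 126 splits, gave differences of 0.74 for Sox18 (p = 0.357), 0.78 for Sox17 (p = 0.373) and -0.53 for Sox7 (p = 0.429). Without R-propranolol replicate 5 these differences were 0.49 for Sox18, 0.38 for Sox17 and -0.09 for Sox7. The titles of vehicle replicates 1 and 2 share a mouse number, and p-values measure the spread between these samples, whether or not each came from its own animal.

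The differences of Sox17 and Sox18 rested on R-propranolol replicates 2 and 5. With both left out, a choice made after the data were seen, the edgeR log2 fold change of R-propranolol over vehicle was -0.09 for Sox18 (95% interval -0.59 to 0.40), -0.19 for Sox17 (-0.86 to 0.49) and -0.05 for Sox7 (-0.27 to 0.18). Without R-propranolol replicate 5 alone it was 0.97 for Sox18, 0.75 for Sox17 and -0.09 for Sox7. Without R-propranolol replicate 2 alone it was 0.62 for Sox18, 0.93 for Sox17 and -0.37 for Sox7. Leaving out the lowest tumor for Sox17 and Sox18, R-propranolol replicate 4, gave 1.42 for Sox18 and 1.51 for Sox17, both with an edgeR adjusted p = 0.660. Both were under an unadjusted threshold of 0.05, as were 737 of 13866 genes in that fit, against 320 of 13901 with all 9 tumors.

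**Figure D2:**
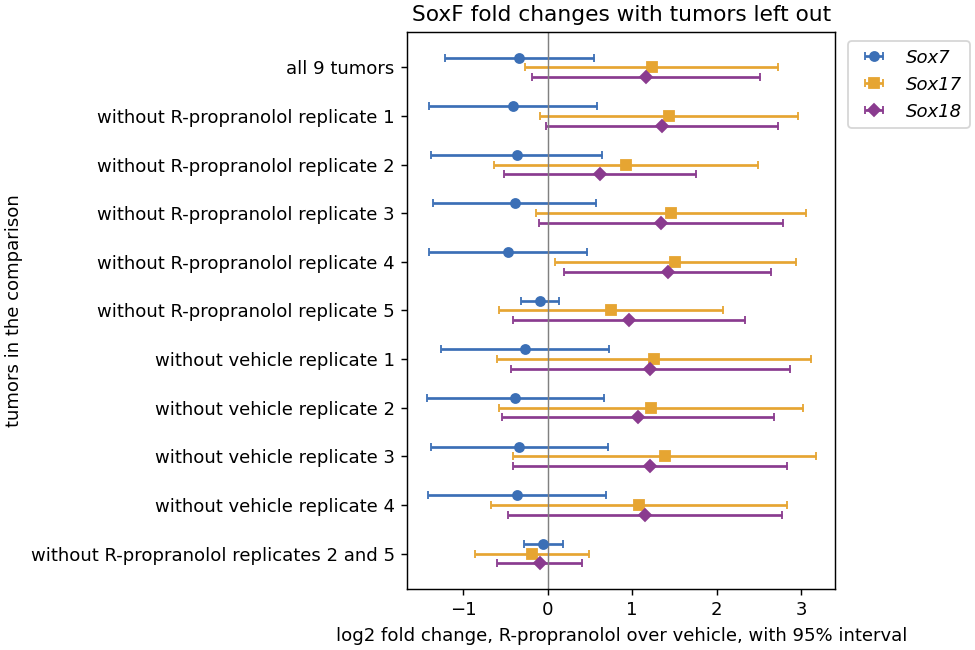
Log2 fold change of R-propranolol over vehicle with its 95% interval for each SoxF gene, with all 9 tumors and with tumors left out. Without R-propranolol replicates 2 and 5 the values are -0.05 for Sox7, -0.19 for Sox17 and -0.09 for Sox18.

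The tumors high in Sox17 and Sox18 also had the highest summed markers of several other cell types. Summed fibroblast markers reached 31247 and 16061 CPM in R-propranolol replicates 2 and 5, against 5218 to 8483 CPM in the other 7 tumors. Mural markers summed to 546 and 9244 CPM in those R-propranolol tumors and to 137 to 239 CPM in the others. Macrophage markers summed to 2669 and 2836 CPM there and to 593 to 1821 CPM in the others. Some mural genes are also expressed in skeletal muscle, whose markers were high in R-propranolol replicate 5. Of the 9244 CPM of mural markers in that tumor, Des alone had 8693 CPM. The part of these cells in the levels of Sox17 and Sox18 was not tested. In RNA of tumor tissue, fewer cells of a type and less RNA per cell cannot be told apart.

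R-propranolol replicates 2 and 5 were the 2 highest tumors for Sox17 and Sox18, as they were for 18.9% of all tested genes. The same held for 10 of 15 endothelial markers, among them Pecam1, Tek, Erg, Emcn and Egfl7. Another 3 of the 15, Tie1, Ecscr and Flt1, were lowest in R-propranolol replicate 5. The summed endothelial CPM was also lowest in that tumor, at 805. R-propranolol replicate 5 was the lowest tumor for Sox7, as for 42.1% of all tested genes.

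Set against the mean log2 CPM of the 15 endothelial markers, the group differences of Sox17 and Sox18 were smaller and that of Sox7 larger with all 9 tumors. That mean was 4.53 ± 0.78 in R-propranolol tumors (SD, n = 5) and 4.15 ± 0.26 in vehicle tumors (SD, n = 4), with an exact permutation p of 0.421. Relative to it, Sox18 averaged -0.74 log2 units in R-propranolol tumors and -1.11 in vehicle tumors, a difference of 0.36 (exact permutation p = 0.262). Sox17 averaged -2.70 in R-propranolol tumors and -3.10 in vehicle tumors, a difference of 0.40 (exact permutation p = 0.310). Sox7 averaged 0.88 in R-propranolol tumors and 1.78 in vehicle tumors, a difference of -0.90 (exact permutation p = 0.357). Without R-propranolol replicate 5 the relative differences were -0.29 for Sox7, 0.18 for Sox17 and 0.29 for Sox18, and without replicates 2 and 5 that of Sox7 was 0.12.

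Levels can be compared between the genes only per length of exon. In vehicle tumors Sox7 averaged 18.6 ± 2.04 CPM per kilobase, Sox18 5.13 ± 0.660 and Sox17 0.444 ± 0.112 (SD, n = 4), and these ranges did not overlap. In R-propranolol tumors the averages were 14.7 ± 6.26 for Sox7, 11.5 ± 9.74 for Sox18 and 1.05 ± 0.913 for Sox17 (SD, n = 5). Within tumors Sox7 was above Sox18 in R-propranolol replicates 1, 3 and 4 and below it in replicates 2 and 5. The genes were not tested against each other.

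The makeup of the group differed from tumor to tumor under R-propranolol. Sox18 made up 21.6%, 59.3%, 26.2%, 14.2% and 73.9% of the summed SoxF CPM per kilobase in R-propranolol replicates 1 to 5, against 20.1%, 19.6%, 22.7% and 22.5% in vehicle replicates 1 to 4. Sox7 made up 76.6%, 36.4%, 71.8%, 84.6% and 16.4% in R-propranolol tumors, against 78.3%, 78.3%, 75.0% and 76.2% in vehicle tumors. Sox18 thus passed Sox7 in R-propranolol replicates 2 and 5 only. The mean share of Sox18 was 17.8 percentage points higher in R-propranolol tumors (exact permutation p = 0.341), and that of Sox7 differed by -19.8 points (exact permutation p = 0.341). Without R-propranolol replicate 5 these differences were 9.12 points for Sox18 and -9.60 points for Sox7. Sox17 held 1.20% to 9.66% in R-propranolol tumors and 1.34% to 2.33% in vehicle tumors.

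**Figure D3:**
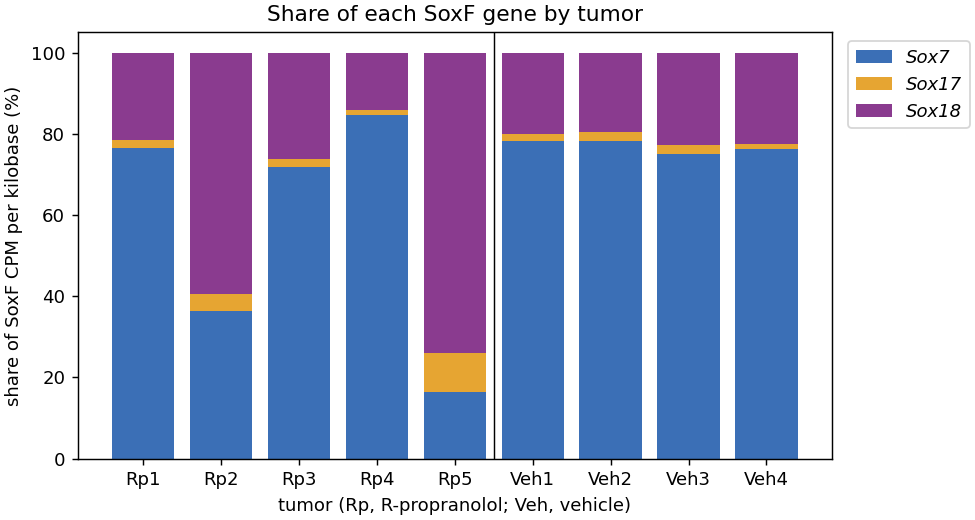
Share of each SoxF gene in the summed SoxF CPM per kilobase of exon, in percent, for each R-propranolol tumor (left) and vehicle tumor (right). Sox18 takes 59.3% and 73.9% in R-propranolol replicates 2 and 5 and 19.6% to 22.7% in vehicle tumors.

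Sox17 and Sox18 varied together across tumors. Over the 8 tumors without R-propranolol replicate 5, Pearson's r of log2 CPM was 0.955 (exact permutation p = 0.00742, adjusted over 6 relations p = 0.0148) and Spearman's rho 0.810 (exact permutation p = 0.0218, adjusted p = 0.0559). Without R-propranolol replicates 2 and 4, the tumors farthest from the median, r was 0.290 (exact permutation p = 0.565), so the relation of Sox17 and Sox18 rests on those tumors. Sox7 had r of -0.499 with Sox18 (exact permutation p = 0.188, adjusted p = 0.215) and -0.486 with Sox17 (exact permutation p = 0.215, adjusted p = 0.215). Its rho was -0.357 with Sox18 (exact permutation p = 0.389) and -0.524 with Sox17 (exact permutation p = 0.197). Neither held without the farthest tumors, where r was 0.302 and 0.177.

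Sox18 followed the endothelial marker mean across tumors, but not every marker in it. Its r with that mean was 0.962 (exact permutation p = 0.000645, adjusted p = 0.00335), its rho was 0.952 (exact permutation p = 0.00114, adjusted p = 0.00685), and r was 0.937 without the 2 farthest tumors (exact permutation p = 0.00278). Sox17 had r of 0.964 with the marker mean (exact permutation p = 0.00112, adjusted p = 0.00335) and rho of 0.786 (exact permutation p = 0.0279, adjusted p = 0.0559), and r was 0.705 without the 2 farthest tumors (exact permutation p = 0.0917). Sox7 had r of -0.514 with it (exact permutation p = 0.194, adjusted p = 0.215). Over the same 8 tumors, r of single markers with Sox18 was -0.741 for Flt1, 0.160 for Ecscr and 0.377 for Tie1. It was 0.683 to 0.994 for the other markers of the list.

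Among the 13900 other tested genes, those most like Sox18 over the same 8 tumors were Egfl7, a secreted endothelial protein, at r = 0.994, then P3h3 and Vkorc1 at 0.988, the growth factor Pdgfc at 0.987 and Rasip1, which acts in vessel lumen formation, at 0.986. With all 9 tumors Egfl7 also came first, at r = 0.993, and all 5 stayed among the first 10. Those most like Sox17 were Tshz3 at 0.994, Sbsn at 0.992, Ctla2b at 0.989, and Kank3 and Chst15 at 0.988. With all 9 tumors Tshz3 was at place 6 and Ctla2b at place 47. Those most like Sox7 were Tdp1 at 0.987, Nfatc2ip at 0.977, Tardbp at 0.958, Wdr77 at 0.949 and Tpgs2 at 0.947. The likeness to Sox7 depended on the library left out, since with all 9 tumors Tdp1 was at place 1782, Nfatc2ip at 3089, Tardbp at 194, Wdr77 at 930 and Tpgs2 at 4318. These values describe likeness across tumors that also differ in host tissue, and are given without a test.

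Reported targets of SoxF proteins were examined next. Of 13 listed genes, 11 were tested, while Prox1 had 0 to 16 counts per tumor and Mmp7 a single count in all. No target passed adjustment. At an unadjusted p of 0.05, 2 of the 11 were higher in R-propranolol tumors, where 2.01% of all tested genes were, and none was lower, where 0.288% were. The median log2 fold change was 0.13 for the targets and 0.03 for all tested genes.

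Robo4, an endothelial guidance receptor, had 7.27, 35.3, 10.7, 5.41 and 21.7 CPM in R-propranolol replicates 1 to 5, against 6.89, 5.82, 7.62 and 5.41 CPM in vehicle replicates 1 to 4. Like Sox18 it was highest in R-propranolol replicates 2 and 5, and its r with Sox18 over 8 tumors was 0.967. Its log2 fold change was 1.32 (SE 0.54, 95% interval 0.09 to 2.55, edgeR adjusted p = 0.876). Dll4, an arterial Notch ligand, had 8.86, 25.9, 13.9, 4.80 and 12.4 CPM in R-propranolol tumors, against 4.91, 5.82, 6.75 and 8.54 CPM in vehicle tumors. Replicates 1, 2, 3 and 5 of R-propranolol exceeded every vehicle tumor and replicate 4 was below all of them, and its log2 fold change was 1.02 (SE 0.44, 95% interval 0.01 to 2.02, edgeR adjusted p = 0.876). Without R-propranolol replicate 2 the log2 fold changes were 0.81 for Robo4 and 0.62 for Dll4, and without replicates 2 and 5 they were 0.28 for Robo4 and 0.50 for Dll4. Dll4 shares 214 exon bases with Gm14207, which is also in the table.

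Cldn5, a tight junction protein, and Kdr, the main VEGF receptor, had log2 fold changes of 1.40 (SE 0.71) and 1.38 (SE 0.62), each with an edgeR adjusted p = 0.876. Without R-propranolol replicate 5 they were 0.86 for Cldn5 and 0.92 for Kdr, and without replicates 2 and 5 they were 0.0065 for Cldn5 and 0.092 for Kdr. Both were highest in R-propranolol replicates 2 and 5, where Kdr had 69.5 and 84.7 CPM against at most 24.0 CPM in vehicle tumors. Vcam1, a leukocyte adhesion receptor, went the other way across tumors. It had 499, 264, 517, 536 and 62.2 CPM in R-propranolol tumors, against 445, 573, 543 and 580 CPM in vehicle tumors, and its r with Sox18 over 8 tumors was -0.928. Its log2 fold change was -0.51 (SE 0.51), and -0.24 without R-propranolol replicate 5.

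The other 6 targets had smaller differences. The log2 fold changes were 0.13 for Notch1 and 0.11 for Notch4, both Notch receptors, 0.25 for Cdh5, which encodes VE-cadherin, and 0.08 for the receptor Acvrl1. They were 0.05 for the venous factor Nr2f2 and -0.21 for the arterial ligand Efnb2. Notch1, Nr2f2, Acvrl1, Vcam1 and Sox4 share exon bases with other annotated genes, so their counts are less certain. Without R-propranolol replicates 2 and 5, no target passed an unadjusted p of 0.05, where 639 of 13812 tested genes did, and the median was 0.11. Without replicate 5 alone 1 passed, as did 519 of 13743 tested genes, with 10 of 11 target means higher and a median of 0.27. Without replicate 2 alone no target passed, where 283 of 13698 tested genes did, with 5 means higher, 6 lower and a median of -0.011. In these fits, in the order given, the medians of all tested genes were -0.0033, 0.012 and 0.0068.

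**Figure D4:**
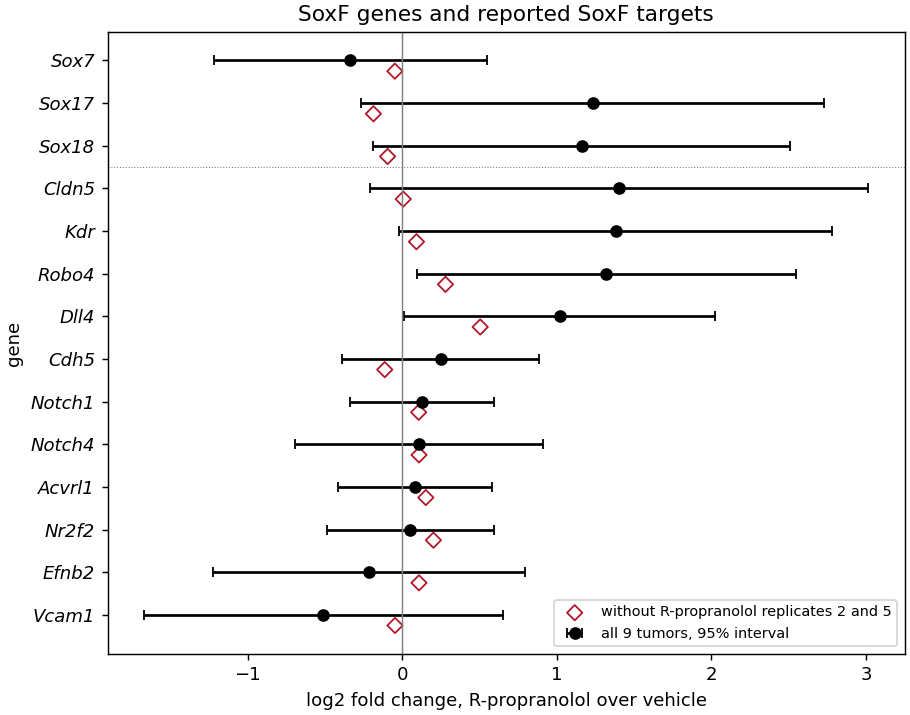
Log2 fold change of R-propranolol over vehicle for the SoxF genes and the 11 tested targets. Dots with 95% intervals use all 9 tumors and open diamonds leave out R-propranolol replicates 2 and 5, where Sox17 and Sox18 are at -0.19 and -0.09.

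Upstream sequences of the targets were searched for the core SoxF motif ACAAT and its reverse ATTGT, on both strands, over 250 bases before each RefSeq transcription start. RefSeq promoters on GRCm38.p6 matched 10 of the 13 targets with 12 promoters, of which 4 held the motif (those of Robo4, Notch4 and Mmp7), against 27.7% of 32851 promoters in the table. RefSeq starts differ from those of GENCODE. The Notch4 match and the match of the Mmp7 promoter at chr9:7692091-7692340 lie inside the GENCODE genes. A match is a description and not a binding site. Robo4 is shown because it is a tested target with the motif, which is in capitals. The stretch, chr9:37401722-37401896 on the plus strand, ends at the base before the GENCODE start of Robo4.
Robo4: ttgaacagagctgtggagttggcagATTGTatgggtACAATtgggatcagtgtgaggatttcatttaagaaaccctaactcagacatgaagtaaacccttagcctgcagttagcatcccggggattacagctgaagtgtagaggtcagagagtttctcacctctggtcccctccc

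No gene of the proteins that act with SoxF factors passed adjustment. Mef2c, a described partner of SOX18, had a log2 fold change of 2.49 (SE 1.12, edgeR adjusted p = 0.876), with 575 CPM in R-propranolol replicate 5 and 17.7 to 31.8 CPM in the other 8 tumors, and 0.20 without that tumor. Mef2c is also a muscle gene, and skeletal muscle markers were high in that tumor. Rbpj, the Notch effector, had 222, 262, 251, 232 and 85.6 CPM in R-propranolol replicates 1 to 5, against 200, 214, 194 and 210 CPM in vehicle replicates 1 to 4. R-propranolol replicates 1 to 4 exceeded every vehicle tumor and replicate 5 was below all of them. The log2 fold change of Rbpj was 0.04 with all tumors and 0.24 without replicate 5, where it passed an unadjusted p of 0.05, as did 364 of 13743 genes in that direction, but not adjustment. It was 0.20 without replicates 2 and 5, again past the unadjusted threshold only, as were 388 of 13812 genes in that direction. Ctnnb1, which encodes beta-catenin, had -0.13. Ctnnb1 shares 759 exon bases with Ulk4.

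Of 17 Sox genes outside the SoxF group, 6 were tested. At an unadjusted p of 0.05 in edgeR, 1 of the 6 was higher, where 2.01% of all tested genes were. None was lower, where 0.288% were. Sox6, which acts in muscle and cartilage, was higher at an unadjusted p of 0.05 (log2 fold change 4.46, SE 1.95, edgeR adjusted p = 0.876), through 172 CPM in R-propranolol replicate 5, against 0.68 to 2.34 CPM in the other 8 tumors. Sox13 had 1.85 (SE 0.84), and 1.10 without that tumor. Sox4, the most abundant, had -0.15 (SE 0.45), with 80.2 CPM in R-propranolol replicate 5 and 405 to 538 CPM in the others. Neither Sox6 nor Sox4 was raised in R-propranolol replicate 2. Sox5, Sox12 and Sox13, 3 of the 6, were highest in R-propranolol replicates 2 and 5, as Sox17 and Sox18 were. So were 18.9% of all tested genes and 10 of the 15 endothelial markers. Sox13 had 10.7 and 17.2 CPM there, against at most 2.45 CPM in vehicle tumors.

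**Figure D5:**
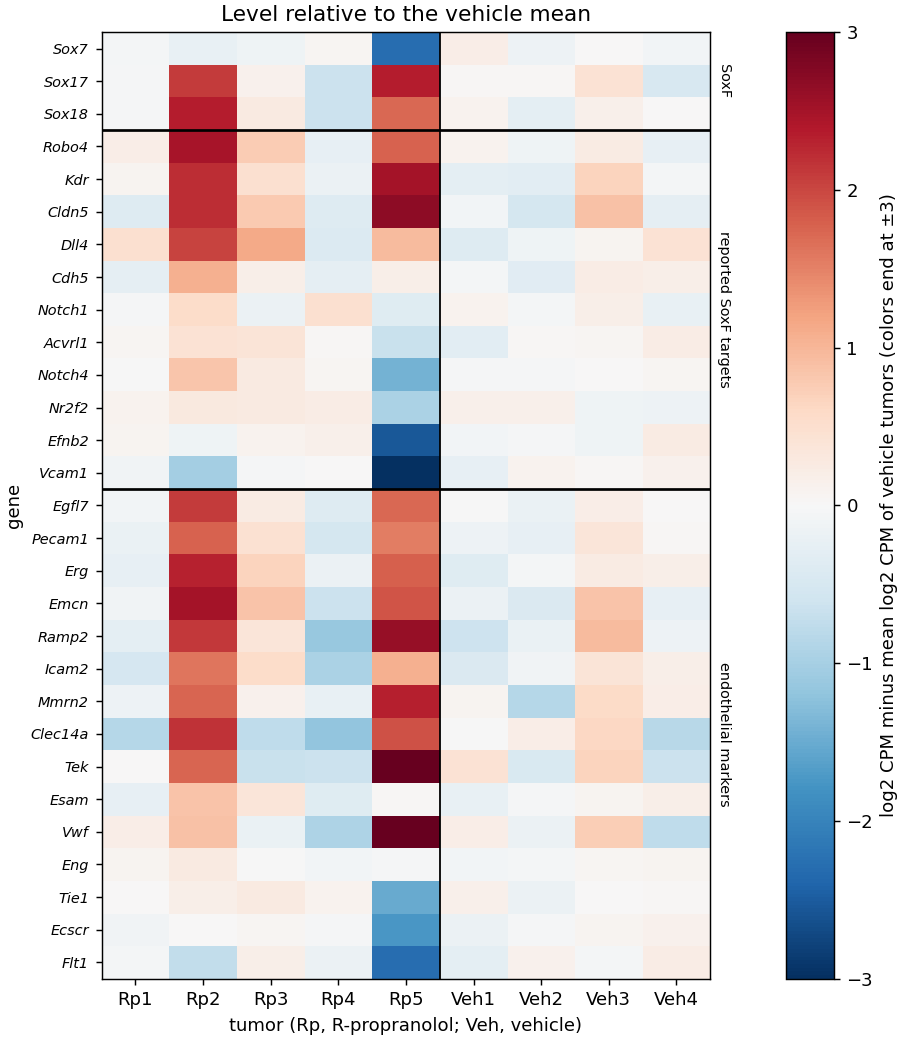
Log2 CPM minus the vehicle mean for SoxF genes and listed genes, with R-propranolol tumors left of vehicle tumors and colors ending at ±3. Sox17 and Sox18 are raised in R-propranolol replicates 2 and 5, and Sox7 is low in replicate 5 only.

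SOX18 has been linked to the mevalonate pathway in work on propranolol. All 23 tested genes of mevalonate and cholesterol synthesis missed an unadjusted p of 0.05 in edgeR, which 2.3% of all tested genes passed. Their means were higher in R-propranolol tumors for 5 and lower for 18, with a median log2 fold change of -0.16. Dhcr7, which makes cholesterol from its precursor, had -0.32 (SE 0.22), Hsd17b7 -0.41 (SE 0.40) and the regulator Srebf2 -0.27 (SE 0.36). Without R-propranolol replicate 5, 7 were higher and 16 lower, with a median of -0.022. Without replicates 2 and 5, 19 were higher and 4 lower, with a median of 0.11.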

How the data were processed

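RNA was measured in 9 bEnd.3 tumors, 5 given R-propranolol and 4 given vehicle. Per the labels, the authors made NEBNext Ultra libraries, read 150 bases from each end, and named FastQC, STAR, HTSeq and edgeR with the mm10 build, with versions, annotation and strandedness not given in the sources used here. Deposited values are raw counts per gene symbol, and 5 summary lines of HTSeq were left out, of which reads outside genes were 13.4% to 15.4%.

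Groups were compared in R 4.3.3 with edgeR 4.0.16: filterByExpr (minimum count 10, minimum total 15), TMM scaling, the quasi-likelihood test and Benjamini-Hochberg adjustment over 13901 genes. Log2 CPM used a prior count of 0.25. Exact permutation tests covered all 126 splits and were two-sided. Alternatives used limma 3.58.1, DESeq2 1.42.0, other filters and scalings, and fewer tumors. Gene places came from GENCODE M21 and promoters from RefSeq.

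Named genes were the SoxF genes, all tested targets and partners, the 2 smallest p and the most abundant gene of the other Sox and mevalonate lists, and the 5 genes most like each SoxF gene. The members and lists were chosen with earlier results of these data known. No pair of libraries was a duplicate, since the lowest chi-square per gene was 12.4.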

Additional observations from a re-analysis of the deposited data

Results flagged for a closer look

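In 8 of 46 gene and group combinations, 1 tumor lay far from the others of its group by Dixon's criterion. Chance meets that criterion in about 1 of 20 independent combinations. These combinations share the same tumors, and some genes were named for their p in these data, so the count cannot be set against that rate. All 8 were in R-propranolol replicate 5, the tumor with high skeletal muscle markers. It was the lowest of its group for Sox7 at 12.4 CPM, Nr2f2 at 39.7, Efnb2 at 44.3, Rbpj at 85.6, Ctnnb1 at 491 and Sox4 at 80.2 CPM. It was the highest for Mef2c at 575 CPM and Sox6 at 172 CPM. Sox17 and Sox18 were not among them, since R-propranolol replicates 2 and 5 were both high.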

How the results depend on the processing

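No SoxF gene and no other named gene passed an adjusted p of 0.05 under any of 18 alternatives that gave it a p-value. Sox17 had as few as 31 counts in a tumor, and the effect of depth on the calls was not tested. The cause of the changes below was not tested.

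With limma-voom and quality weights the log2 fold change was -0.04 for Sox7, -0.024 for Sox17, 0.13 for Sox18, -0.0076 for Cdh5, 0.083 for Efnb2, 0.10 for Ctnnb1, -0.25 for Sox6, 0.060 for Sox4 and 0.058 for Srebf2, with medians of -0.095 for the other Sox genes, -0.026 for the endothelial markers and 0.14 for the mevalonate genes (20 higher, 3 lower). With library size alone it was -0.047 for Nr2f2, -0.022 for Acvrl1 and -0.049 for Rbpj, and the median of all genes was -0.10 against 0.03 with TMM.

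Without R-propranolol replicates 2 and 5, added after the data were seen, it was -0.19 for Sox17, -0.095 for Sox18, -0.11 for Cdh5, 0.11 for Efnb2, 0.058 for Ctnnb1, -0.28 for Sox6, -0.11 for Sox13, 0.16 for Sox4 and 0.084 for Srebf2. The medians were -0.085 for the other Sox genes and -0.053 for the endothelial markers. The permutation differences were -0.19 for Sox17 and -0.13 for Sox18, the levels relative to endothelial markers 0.12 for Sox7 and -0.023 for Sox17, and the share differences 0.707 points for Sox7, -0.159 for Sox17 and -0.547 for Sox18.

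Leaving out 1 tumor at a time, the log2 fold change ranged over -0.46 to -0.09 for Sox7, 0.75 to 1.51 for Sox17, 0.62 to 1.42 for Sox18, -0.15 to 0.32 for Notch4, -0.040 to 0.36 for Cdh5, -0.011 to 0.22 for Nr2f2, -0.33 to 0.048 for Efnb2, -0.016 to 0.22 for Acvrl1, -0.049 to 0.24 for Rbpj, -0.20 to 0.020 for Ctnnb1, -0.46 to 4.88 for Sox6, -0.28 to 0.11 for Sox4, 0.86 to 1.79 for Cldn5, 0.92 to 1.66 for Kdr, 0.81 to 1.56 for Robo4, 0.62 to 1.24 for Dll4, -0.68 to -0.24 for Vcam1, 0.20 to 2.85 for Mef2c and 1.10 to 2.16 for Sox13. The level relative to endothelial markers ranged over -1.27 to -0.29 for Sox7, 0.18 to 0.54 for Sox17 and 0.19 to 0.49 for Sox18, and the median of the targets over -0.011 to 0.27. Genes higher at an unadjusted p of 0.05 ranged over 72 to 656 and lower genes over 26 to 155. Targets higher at that p ranged over 0 to 4.

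The 280 higher and 40 lower genes became 173 and 69 with library size alone, 560 and 96 with DESeq2 (2 at an adjusted p of 0.05), 502 and 336 with limma-voom, 509 and 117 with no filter, and 74 and 26 with vehicle replicates 1 and 2 summed, and 251 were lower without R-propranolol replicates 2 and 5. Without the 2 farthest tumors r was 0.290 for Sox18 and Sox17, 0.302 for Sox18 and Sox7, 0.177 for Sox17 and Sox7, and 0.705 for Sox17 and the endothelial mean.

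Replicate numbers are shared between the groups, and no pairing of tumors by number was seen. The check used deviations from group means, and the R-propranolol mean includes replicate 5, so it cannot exclude pairing. Deviations of same-numbered tumors correlated at -0.28, 0.09, -0.64 and 0.53, and 1 of 8 numbered tumors was closest to its own number. An alternative fit added a replicate block. There was no vehicle replicate 5, so R-propranolol replicate 5 had a block of its own and did not enter the fold change. That fold change therefore compares replicates 1 to 4 of each group. It was -0.09 for Sox7, 0.37 for Sox17 and 0.43 for Sox18 (log2). For Efnb2 it was 0.053, for Ctnnb1 0.022, for Sox6 -0.47 and for Sox4 0.11. The median of the other Sox genes was 0.19, and 219 genes were higher and 64 lower. Rbpj, at 0.24 with the block, passed an unadjusted p of 0.05.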

Other observations

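The 3 tested markers of lymphatic endothelium, Lyve1, Pdpn and Flt4, were highest in the tumors high in Sox17 and Sox18. The same held for 18.9% of all tested genes. Lymphatic endothelium is the lineage in which Sox18 acts upstream of Prox1. Of the 6 markers listed, Ccl21a had no counts, Mmrn1 at most 7 and Reln at most 47 per tumor, and these were not tested. The genes described here were picked after their values were seen. Lyve1, a hyaluronan receptor of lymphatic vessels and some macrophages, had 12.8, 94.7, 8.73, 2.42 and 231 CPM in R-propranolol replicates 1 to 5, against 9.04, 16.8, 13.1 and 1.38 CPM in vehicle replicates 1 to 4. Flt4, the VEGF receptor of lymphatic endothelium, had 3.18, 14.2, 5.21, 2.21 and 9.31 CPM in R-propranolol tumors, against 2.15, 1.35, 3.02 and 2.75 CPM in vehicle tumors. Prox1 had 4, 12, 0, 2 and 16 counts in R-propranolol tumors, against 0, 1, 6 and 0 counts in vehicle tumors, too few to test. The groups overlapped for Lyve1, Flt4 and Prox1, and macrophage and fibroblast markers were high in the same R-propranolol replicates 2 and 5.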
